A study of Homo sapiens with 20 samples.

Results

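Coagulation and complement genes are described here in pancreatic progenitors (PPs) and islet-like organoids (hILOs) made from the human embryonic stem cell line MEL1. The 9 genes were taken by symbol: the coagulation factors *F2*, *F5*, *F7* and *F10*, the fibrinolysis gene *PLG*, the inhibitor *SERPINC1*, and the complement genes *C3*, *C5* and *CFB*. Each was found by its Ensembl identifier among the 60624 identifiers listed for hILOs and the 60623 listed for PPs. The MEL1 line of the study is an *INS*-GFP reporter (INS GFP/W), in which the endogenous insulin promoter drives GFP. All cells were of this line and either kept *ALKBH5* (WT) or lacked it (A5-KO). *ALKBH5*, a gene for an RNA demethylase that removes the m6A mark from mRNA, had been disrupted in A5-KO with CRISPR-Cpf1. A5-KO is 1 of the knockout lines that the study made, so what is particular to this line and the genotype cannot be told apart. hILOs had 2 WT and 2 A5-KO libraries and no drug. Their labels give media up to day 22, while the methods of the study go on to a later medium, so the day on which they were taken is uncertain. PPs, with media up to day 14, were taken 0, 1, 2 or 3 h after actinomycin D (Act D) at 1 µg/ml, which blocks transcription, with 2 libraries for each genotype and time and 16 in all. The study called such libraries biological replicates, but the labels do not say which cultures they came from, so the p-values measure the spread between these libraries.

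Most coagulation and complement proteins are made by hepatocytes and secreted into blood. Coagulation is a chain of proteases: the tissue factor and factor VII complex activates factor X, which with its cofactor factor V turns prothrombin into thrombin, and thrombin cuts fibrinogen into the fibrin of a clot. Antithrombin stops these proteases and plasmin dissolves the clot. Complement is a parallel chain in which the cleavage of C3, the hub of all its routes, leads to the cleavage of C5 and to pores in a target membrane, with factor B as the protease of the alternative route. Liver and pancreas both arise from the gut endoderm, and genes of this kind are also transcribed in other endodermal epithelia.

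Levels in hILOs are TPM, in which each transcript is scaled by its length and by the library total, so that no depth is kept. Levels in PPs are CPM, read counts scaled to the same total in every library, from 30516384 to 35206514 reads per library. The 2 tables were normalized separately, so no test was made between stages. *ALKBH5* itself was at 78.8 and 81.9 TPM in WT against 4.16 and 3.42 TPM in A5-KO hILOs, and 149 and 172 CPM in WT against 19.1 and 18.8 CPM in A5-KO PPs without Act D, as the labels have it. The islet hormone gene *INS* had a mean of 13005 TPM in WT hILOs, while *INS* and *GCG* were listed at 0 in PPs at 0 h. Hepatocyte markers were also present, all 17 of them in hILOs, while in PPs at 0 h *APOH* was at 0 in every library, *AHSG* in both A5-KO libraries, and 11 passed the filter. The summed level of the 17 was 23841 to 24049 TPM in WT against 40921 to 41372 TPM in A5-KO hILOs, and 1842 to 1952 CPM in WT against 2589 to 2705 CPM in A5-KO PPs at 0 h. Single genes weighed heavily in these sums, which say little of the other markers. In hILOs the mean of *TTR* went from 7539 TPM in WT to 18711 TPM in A5-KO. In PPs at 0 h that of *AFP* went from 557 to 1319 CPM, while that of *AMBP* went from 585 to 516 CPM. These are bulk samples, so fewer cells of a type and less RNA per cell cannot be told apart.

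In hILOs, 6 of the 9 genes lay above 15 TPM in every library, and the order of levels was similar in both genotypes. *C3* was highest in WT at 504 ± 3.56 TPM (mean ± s.d., n = 2 here and below). *F10* at 223 ± 6.36 TPM and *CFB* at 219 TPM followed, and their libraries overlapped. *F2* came next at 151 ± 12.2 TPM. *F7* at 26.2 ± 2.08 TPM and *SERPINC1* at 20.9 ± 2.75 TPM formed a middle pair with *F7* above in both libraries. *C5* at 8.04 ± 0.31 TPM and *F5* at 3.23 ± 0.37 TPM were low. *PLG* was at 0.0768 and 0.114 TPM in WT against 0.0637 and 0.0516 TPM in A5-KO, under the mean of 1 TPM needed for a test, so 8 of the 9 genes were tested.

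**Figure D1:**
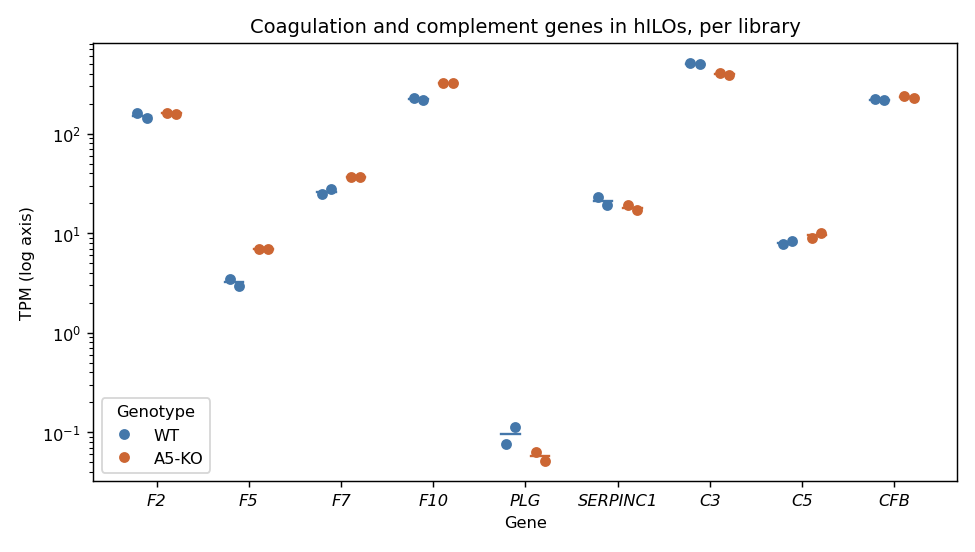
TPM (log axis) of the 9 genes in the 2 WT and 2 A5-KO hILO libraries, each point a library and each bar the mean of a genotype. *F5*, *F7* and *F10* lie higher in both A5-KO libraries and *C3* lower, while *PLG* stays near 0.1 TPM or below.

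A gene was called when its change between genotypes passed a Benjamini-Hochberg adjusted p of 0.05 over all genes tested and exceeded 1.5-fold. Of the 8 genes tested in hILOs, *F5* was called higher in A5-KO and none lower, while 2.7% of all 17300 genes tested were called higher and 4.09% lower. The adjusted p alone was passed by 4 of the 8, *F5*, *F7*, *F10* and *C3*, against 12.6% of all genes. Both A5-KO libraries lay above both WT libraries for 5 of the 8 genes and below them for *C3*, but 61.4% of all genes tested were separated in one direction or the other. The median log2 fold change of the 8 genes was 0.15, beside -0.06 over all genes.

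*F5* encodes factor V, the cofactor that speeds the activation of prothrombin. In hILOs it was at 3.49 and 2.97 TPM in WT against 6.90 and 6.94 TPM in A5-KO, so that the A5-KO libraries agreed closely and lay well above WT. By limma the log2 fold change was 0.91 (s.e. 0.14, adjusted p = 0.031). Adding 1 TPM before taking the logarithm makes this a smaller value than the plain ratio for so low a gene. The call did not hold with any 1 of the 4 hILO libraries left out, when the adjusted p ranged from 0.10 to 0.13, nor with no filter on low values (adjusted p = 0.092).

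*F10* and *F7* encode the vitamin K-dependent proteases factor X and factor VII. *F10* was at 227 and 218 TPM in WT against 325 and 322 TPM in A5-KO hILOs (log2 fold change 0.54, s.e. 0.04, adjusted p = 0.0067). *F7* was at 24.7 and 27.6 TPM in WT against 36.5 TPM in both A5-KO libraries (log2 fold change 0.47, s.e. 0.08, adjusted p = 0.037). Neither gene had overlapping genotypes, and neither reached 1.5-fold on this scale. With median-of-ratios scaling *F10* reached it (log2 fold change 0.60, adjusted p = 0.0054). With 1 hILO library left out, the log2 fold change ranged from 0.51 to 0.57 for *F10* and from 0.39 to 0.55 for *F7*. Such fits leave 1 library in a genotype.

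The 2 genes are neighbours on chromosome 13 of GRCh38, both on the plus strand. *F7* runs from 113105788 to 113120685 and *F10* from 113122799 to 113149529, with 2113 bases between them. *PROZ*, for the vitamin K-dependent protein Z, follows 9118 bases further on. The RefSeq promoter windows (GRCh38.p14, 250 bases before to 50 after the start) of these neighbours are shown first, as the coagulation genes with a shared position and direction in hILOs. Those of *F5*, the gene called in hILOs, and *F2*, whose genotypes overlapped there, are shown for comparison. Windows were found for 7 of the 9 genes. Capitals mark matches, on either strand, to the letters GTTAAT (part of an HNF1 site), CAAAGTCC (an HNF4 core), TTNNGCAA (C/EBP) or an NF-kB motif of GGG, any 4 bases and TCC.
F7 promoter, chr13:113105541-113105840, plus strand: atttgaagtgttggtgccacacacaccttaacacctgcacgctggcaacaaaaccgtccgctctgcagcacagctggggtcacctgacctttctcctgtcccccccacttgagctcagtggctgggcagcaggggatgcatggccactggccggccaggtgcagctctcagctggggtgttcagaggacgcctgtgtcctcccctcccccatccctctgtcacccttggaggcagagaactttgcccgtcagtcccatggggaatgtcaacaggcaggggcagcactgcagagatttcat
F10 promoter, chr13:113122549-113122848, plus strand: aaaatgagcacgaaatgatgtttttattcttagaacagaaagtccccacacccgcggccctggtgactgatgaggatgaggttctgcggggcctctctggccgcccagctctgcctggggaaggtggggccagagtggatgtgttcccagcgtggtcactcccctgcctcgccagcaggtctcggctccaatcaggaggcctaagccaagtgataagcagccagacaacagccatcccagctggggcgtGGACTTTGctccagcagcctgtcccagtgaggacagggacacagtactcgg
F5 promoter, chr1:169586432-169586731, minus strand: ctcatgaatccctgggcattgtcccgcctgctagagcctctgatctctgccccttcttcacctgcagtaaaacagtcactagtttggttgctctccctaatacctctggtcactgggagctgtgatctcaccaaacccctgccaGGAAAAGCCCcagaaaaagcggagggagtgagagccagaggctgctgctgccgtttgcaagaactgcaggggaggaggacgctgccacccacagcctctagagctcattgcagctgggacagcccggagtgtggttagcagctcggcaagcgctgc
F2 promoter, chr11:46718963-46719262, plus strand: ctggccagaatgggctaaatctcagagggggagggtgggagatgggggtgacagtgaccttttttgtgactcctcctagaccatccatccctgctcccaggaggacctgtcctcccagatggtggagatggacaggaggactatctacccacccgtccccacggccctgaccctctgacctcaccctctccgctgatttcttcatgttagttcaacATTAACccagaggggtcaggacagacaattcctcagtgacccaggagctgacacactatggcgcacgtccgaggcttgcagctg

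The *F10* window held 1 HNF4 core, at bases 250 to 257 and so across the start site, and 1.2% of all 35116 promoter windows held one. The *F7* window held none of the 4 motifs, which says only that these letters are not in it. The HNF1 letters stood at bases 217 to 222 of the *F2* window, and 6.88% of all windows held them. Of the windows not shown, both of *PLG* and one of *C5* (chr9:121050226-121050525) held them too. The *F5* window held 1 match to the NF-kB letters, at bases 145 to 154, and that of *CFB* (chr6:31945845-31946144) held 2, while 22.6% of all windows held at least 1. The C/EBP letters, in 10.5% of all windows, were in none of the members' windows. A match is a description of the letters and not a site in use.

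*F2* encodes prothrombin, the precursor of thrombin. It was at 160 and 143 TPM in WT against 162 and 156 TPM in A5-KO hILOs, so that the genotypes overlapped (log2 fold change 0.08, 95% interval -0.11 to 0.26, adjusted p = 0.50). *SERPINC1* encodes antithrombin, the main inhibitor of thrombin and factor Xa. Its hILO levels of 22.9 and 19.0 TPM in WT against 19.0 and 17.1 TPM in A5-KO also overlapped (log2 fold change -0.20, 95% interval -0.53 to 0.14, adjusted p = 0.36).

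Among the complement genes, *C3* was at 506 and 501 TPM in WT against 402 and 390 TPM in A5-KO hILOs. It was the only one of the 8 genes with both A5-KO libraries below WT (log2 fold change -0.35, s.e. 0.03, adjusted p = 0.011), and the change did not reach 1.5-fold. With 1 library left out the adjusted p of *C3* was 0.057 to 0.074. *C5*, which starts the assembly of the membrane pore, was at 7.82 and 8.26 TPM in WT against 8.93 and 9.99 TPM in A5-KO (log2 fold change 0.21, 95% interval -0.11 to 0.53, adjusted p = 0.31). *CFB*, the gene for factor B, was at 223 and 215 TPM in WT against 240 and 228 TPM in A5-KO (log2 fold change 0.10, 95% interval -0.03 to 0.22, adjusted p = 0.24). The A5-KO libraries lay above WT for both of these genes, by less than the test could separate.

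*CFB* shares 2249 of its 5312 exon bases with a readthrough gene (ENSG00000244255) that joins it to its neighbour *C2*, and the counting could split reads among them. In hILOs that gene was at 137 to 152 TPM and *C2* at 39.6 to 44.3 TPM. In PPs *CFB*, *C2* and the readthrough gene were all listed at 0 in every one of the 16 libraries. The same holds for 271 of 8004 protein-coding genes with at least 10 TPM in every hILO library, among them *GTF2H4*, a subunit of the general transcription factor TFIIH, which was named after its values were seen. Of those 271 genes, 90.8% share exon bases with another protein-coding gene on the same strand, compared with 12.3% of the other 7733, but *GTF2H4* itself shares none. Why these genes are at 0 was not tested. So no level of *CFB* in PPs is given, and no change with stage or genotype. *C3* shares 1357 of 11577 exon bases with a lncRNA (ENSG00000276980) on the same strand and *C5* 408 of 16890 with *CNTRL* on the opposite one.

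In PPs 6 of the 9 genes passed the filter of a mean of 1 CPM, *F2*, *F5*, *F10*, *SERPINC1*, *C3* and *C5*. Per kilobase of exon, *F2* led in WT at 0 h with 94.0 CPM per kb and *F5* followed with 37.6 CPM per kb. *F10* had 6.00, *C3* 2.45, *C5* 2.14 and *SERPINC1* 1.47 CPM per kb. The levels of *F7* in the 16 libraries ran from 0.225 to 1.44 CPM, which is 7 to 49 reads, and those of *PLG*, the gene for plasminogen, from 0.146 to 0.761 CPM, or 5 to 26 reads. Placed among the genes tested in its own table, *F5* lay above 92.8% of genes per length in PPs and above 30.4% in hILOs. The opposite held for *C3*, above 49.2% in PPs and 98.4% in hILOs, and for *F10*, above 63.6% and 97.1%. *F2* was high in both, above 97.8% and 94.4% of genes. These ranks are side by side only, as the tables differ in unit.

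At 0 h, before any Act D, none of the 6 genes tested was called, where 2.7% of 13911 genes were. By limma *F5* alone passed the adjusted p of 0.05, as 4.21% of all genes did, and 2 of the 6 had an unadjusted p below 0.05, as did 19.3% of all genes. Both A5-KO libraries lay above both WT libraries for *SERPINC1*, *C3* and *C5* and below them for *F5* and *F10*, while 49.8% of all genes were separated in this way. *F5* was at 339 and 366 CPM in WT against 266 and 242 CPM in A5-KO (log2 fold change -0.47, s.e. 0.08, adjusted p = 0.0098). That is lower in A5-KO without reaching 1.5-fold, in cells where *F5* was an abundant transcript. With 1 library of 0 h left out, the log2 fold change of *F5* ranged from -0.54 to -0.40. *F10* was at 14.9 and 13.5 CPM in WT against 10.3 and 12.4 CPM in A5-KO (log2 fold change -0.31, 95% interval -0.64 to 0.02, adjusted p = 0.29).

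*SERPINC1* was at 2.21 and 2.85 CPM in WT against 4.70 and 3.98 CPM in A5-KO without Act D, from 77 reads upward. Its log2 fold change was 0.60 (95% interval 0.18 to 1.02, adjusted p = 0.12), so a difference of more than 1.5-fold did not pass the test. *C3* was at 27.5 and 29.2 CPM in WT against 30.9 and 35.4 CPM in A5-KO (log2 fold change 0.21, 95% interval -0.04 to 0.47, adjusted p = 0.35). *C5* was at 35.6 and 36.6 CPM in WT against 41.2 and 40.4 CPM in A5-KO (log2 fold change 0.17, adjusted p = 0.38). *F2* was at 226 and 250 CPM in WT against 213 and 235 CPM in A5-KO, with overlapping genotypes (log2 fold change -0.09, adjusted p = 0.61).

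Set beside hILOs, *F5* and *F10* differed in the opposite direction between genotypes. Both were lower in A5-KO at 0 h in PPs and higher in A5-KO in hILOs, without overlap in either stage. *C3* had the reverse pattern, higher in A5-KO in PPs and lower in hILOs. *C5* was higher in A5-KO in both stages. Genotypes were separated in one direction or the other for 61.4% of all genes in hILOs and 49.8% in PPs at 0 h. How many of all genes had opposite directions in both stages was not counted. Whether these differences between stages exceed the spread was not tested, because the tables were normalized separately.

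**Figure D2:**
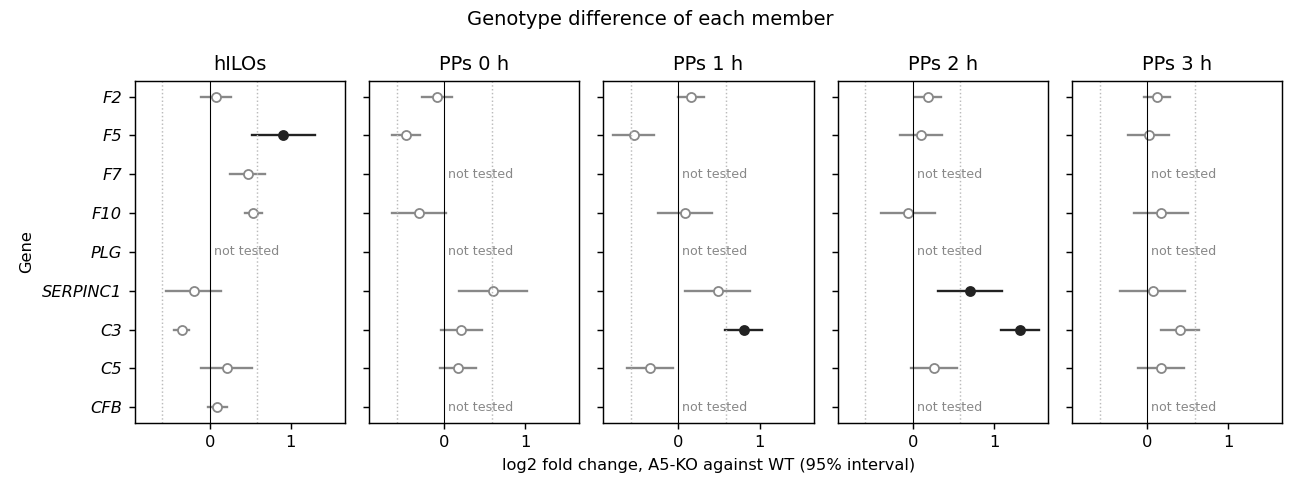
Log2 fold change of A5-KO against WT with its 95% interval for each gene in hILOs and in PPs at 0, 1, 2 and 3 h of Act D, filled where called, with dotted lines at 1.5-fold. *F5* lies at 0.91 in hILOs and -0.47 in PPs at 0 h, and *C3* moves from 0.21 at 0 h to 1.32 at 2 h.

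After Act D no new transcripts are expected, so a CPM value follows what is left of an mRNA relative to the rest of the library. Each PP library had the same total by construction, so a gene that outlasts the others gains CPM. Of the 6 genes tested, *C3* was called higher in A5-KO at 1 h, where 2.94% of 13620 genes were called higher and 1.15% lower. *C3* and *SERPINC1* were called higher at 2 h, where 2.66% were called higher and 4.24% lower. None of the 6 was called at 3 h, where 18.9% of all genes were called, nearly all of them lower. *C3* alone among the 6 passed the adjusted p there, as 31.3% of all genes did, and 1 of the 6 had an unadjusted p below 0.05, as did 41.1% of all genes. The median log2 fold change over all genes was -0.11 at 2 h and -0.13 at 3 h, against 0.23 and 0.15 for the 6 genes. With median-of-ratios scaling those all-gene medians were -0.02 and -0.01, and the split at 2 h turned from 362 higher and 577 lower calls to 486 and 395. With quantile normalization it was 491 and 282, and with only the 4 libraries of 2 h it was 144 and 35. The 2 WT libraries of 2 h differed from each other more than those of any other group. At 3 h the 157 higher and 2411 lower calls became 374 and 1870 by median of ratios, or 826 and 1288 by quantiles.

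*C3* changed most. In WT its level was 25.4 and 25.2 CPM after 1 h, 30.9 and 31.3 CPM after 2 h, then 33.8 and 40.2 CPM after 3 h, from 27.5 and 29.2 CPM without Act D. In A5-KO its level went from 30.9 and 35.4 CPM without Act D to 48.5 and 41.6 CPM after 1 h, 82.0 and 76.0 CPM after 2 h, then 49.1 and 49.2 CPM after 3 h. The A5-KO libraries lay above the WT libraries of the same time at all 4 times, and the A5-KO level peaked at 2 h. At 0, 1, 2 and 3 h, 29.0%, 32.6%, 19.5% and 19.9% of all genes lay above WT in this way. The log2 fold change was 0.80 at 1 h (s.e. 0.11, adjusted p = 0.00022), 1.32 at 2 h (s.e. 0.11, adjusted p = 1.1e-06) and 0.41 at 3 h (s.e. 0.11, adjusted p = 0.010). The difference between genotypes at 2 h exceeded that at 0 h by 1.102 (95% interval 0.77 to 1.43, adjusted p = 0.0018), in a test added after the values were seen. *C3* was the only one of the 6 genes with such an excess, which 0.896% of all genes had. By the same limma test none of the 6 passed at 1 h, where 0.235% of all genes did, or at 3 h, where 18.4% did, with *C3* at 0.59 (adjusted p = 0.21) and 0.19 (adjusted p = 0.43). Of the 6, 3 had an unadjusted p below 0.05 at 1 h, beside 8.99% of all genes, and 2 at 3 h, beside 32.7%. With each library of 0 and 2 h left out in turn the excess stayed between 1.006 and 1.197 (adjusted p from 0.0011 to 0.026). The genes with the most similar course over the 16 libraries, among 10571 with a mean of at least 5 CPM, were *CDH1* (Pearson r = 0.98), *COL17A1* (r = 0.97) and *PIGR* (r = 0.96). These are the genes for the epithelial adhesion protein E-cadherin, a collagen of hemidesmosomes and the receptor that carries polymeric immunoglobulin across epithelia.

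Intestinal epithelium markers also differed between genotypes in these libraries. Of 7 tested, none was called at 0 h, *APOA4*, *FABP2* and *LGALS4* were called higher in A5-KO at 1 h, these and *CDH17* at 2 h (median log2 fold change 0.77), and none higher at 3 h, where *CDX2* was lower. Of all genes, 2.94% were called higher at 1 h and 2.66% at 2 h, and 17.7% lower at 3 h. All 8 markers summed to 597 to 626 CPM in WT against 800 to 827 CPM in A5-KO at 0 h, to 611 to 701 against 949 to 964 CPM at 2 h, and to 701 to 724 against 803 to 828 CPM at 3 h, with none at 0. The highest sum in A5-KO was thus at 2 h, as for *C3*. The A5-KO sums of other coagulation genes (1061.4 to 1063.5 CPM) and other complement genes (1483 to 1512 CPM), listed below, were also highest at 2 h. Those of hepatocyte markers overlapped between 2 h (3176 to 3222 CPM) and 3 h (3130 to 3278 CPM). The part of any of these lists in the course of *C3* was not tested.

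*SERPINC1* was at 3.53 and 2.61 CPM in WT against 6.04 and 5.21 CPM in A5-KO after 2 h. The genotypes stayed apart (log2 fold change 0.71, s.e. 0.19, adjusted p = 0.023). The call rested on the libraries of that time: without WT replicate 2 the adjusted p was 0.20, without A5-KO replicate 1 it was 0.16, and without A5-KO replicate 2 it was 0.087. It was 0.073 with no filter on low values and 0.16 with only the 4 libraries of 2 h. At 3 h the WT libraries were at 3.91 and 4.20 CPM and the A5-KO libraries at 3.81 and 4.84 CPM, and the genotypes overlapped. Its course was most like those of *GSTA1*, for a glutathione transferase (r = 0.93), *DERA* (r = 0.93) and *ERG28* (r = 0.91) over the same libraries. Correlations here are across libraries that share genotype, time and a fixed total, and are given as descriptions.

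**Figure D3:**
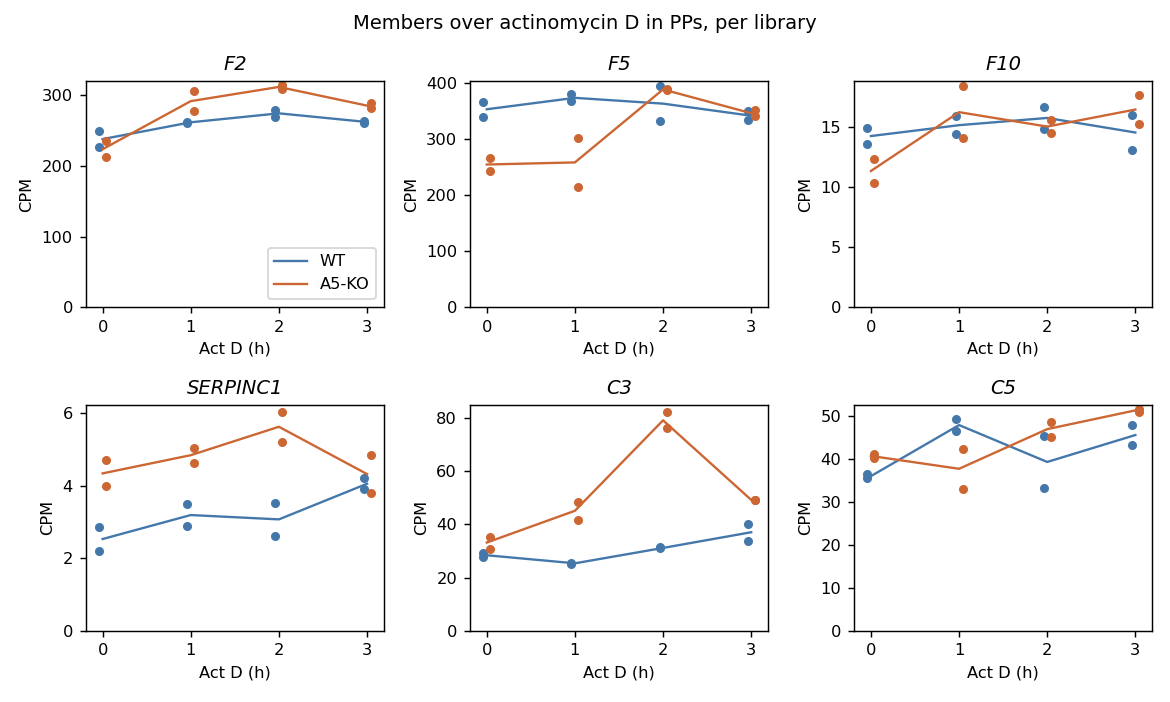
CPM of the 6 genes tested in PPs against hours of Act D, with each point a library and lines through the means of WT and A5-KO, on axes that start at 0. *C3* in A5-KO reaches 82.0 and 76.0 CPM at 2 h against 30.9 and 31.3 CPM in WT, and *F5* in A5-KO starts at 266 and 242 CPM and meets WT by 2 h.

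The genotypes of *F5* came together over Act D. In WT its CPM stayed level, with 379 and 367 after 1 h, 394 and 332 after 2 h, then 349 and 333 after 3 h. In A5-KO it had 302 and 214 CPM after 1 h, 387 and 389 CPM after 2 h, then 340 and 351 CPM after 3 h. At 1 h the log2 fold change was -0.55 (s.e. 0.12, adjusted p = 0.011), under 1.5-fold, and the A5-KO libraries of that time lay far apart. Without A5-KO replicate 1 of 1 h it was -0.80, which passes both limits, and with median-of-ratios scaling it was -0.59 and was called lower. At 2 h (0.10, adjusted p = 0.60) and 3 h (0.02, adjusted p = 0.92) the genotypes overlapped. *C5* showed a like gap between the same A5-KO libraries at 1 h, 42.4 and 33.2 CPM, beside 49.4 and 46.6 CPM in WT (log2 fold change -0.35, adjusted p = 0.13).

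At 1, 2 and 3 h, 32.6%, 19.5% and 19.9% of all genes were higher in both A5-KO than in both WT libraries. *F2* was among them each time. It was at 262 and 261 CPM in WT against 278 and 306 CPM in A5-KO after 1 h, with 270 and 279 against 309 and 315 CPM at 2 h. None of these differences passed the test (log2 fold change 0.15, 0.18 and 0.12 at 1, 2 and 3 h, lowest adjusted p = 0.11). *F10* ran from 13 to 16.7 CPM in WT and from 10.3 to 18.4 CPM in A5-KO over all times. Its genotypes overlapped at 1, 2 and 3 h.

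A straight line over 0 to 3 h gave each gene a slope, in log2 CPM per hour, where a positive value means that the gene gained on the rest of its library. In WT no member had a slope that passed an adjusted p of 0.05, as 0.242% of all genes did, and 1 of the 6, *SERPINC1*, had an unadjusted p below 0.05 (slope 0.19, adjusted p = 0.35), as did 13.4% of all genes. The WT share depended on the times used. With the 0 and 3 h libraries alone, 1.62% of all genes passed with a positive slope and 16% with a negative one, and *C3* and *C5* passed. In A5-KO 4 of the 6 had a positive slope that passed and none a negative one, where 7.44% of all genes passed with a positive slope and 37.1% with a negative one. That split depended on the scaling: it was 23.4% positive and 26.8% negative with median-of-ratios scaling, where 5 of the 6 passed, and 29.1% and 21.6% with quantile normalization, where all 6 did. The median slope of all genes went from -0.08 to 0.02 and 0.05 with these. As reported, the 4 were *C3* with 0.25 (s.e. 0.09, adjusted p = 0.026), *F5* with 0.19 (s.e. 0.05, adjusted p = 0.0059), *F10* with 0.15 (s.e. 0.06, adjusted p = 0.047) and *F2* with 0.12 (s.e. 0.04, adjusted p = 0.021). *C5* had 0.13 (adjusted p = 0.066) and *SERPINC1* 0.02 (adjusted p = 0.88). Only the slope of *F5* passed when either A5-KO library of 0 h was left out, and 2 slopes, those of *F5* and *C3*, passed without the 2 h libraries. *F10* also lost its call without any of several other single libraries, WT ones among them.

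By limma no member had a slope that differed between genotypes at an adjusted p of 0.05, as 2.67% of all genes did, and 1 of the 6 had an unadjusted p below 0.05, as did 22.4% of all genes. That gene was *F5*, with a difference of 0.21 (95% interval 0.06 to 0.37, adjusted p = 0.10), whose adjusted p was 0.0063 with the 0 and 3 h libraries alone. With those libraries 2.11% of all genes passed with a positive difference and 19.9% with a negative one. The slope difference was positive for 5 of the 6 genes, with a median of 0.09 beside -0.07 over all genes. A slope that passed in A5-KO and not in WT is therefore not shown to differ between them.

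Other genes of both pathways were taken from lists chosen with earlier results of these data known. Beside the counts of these and the marker lists below, 2.7% of all genes were called higher and 4.09% lower in hILOs. In PPs at 0 h the shares were 1.57% and 1.13%. In hILOs, 6 of 27 other coagulation and fibrinolysis genes tested rose in A5-KO and 5 fell, with a median log2 fold change of 0.14. *CPB2*, for an inhibitor of fibrinolysis, rose from 2.17 ± 0.50 to 10.5 ± 1.38 TPM (log2 fold change 1.87, adjusted p = 0.013). *SERPIND1*, for the thrombin inhibitor heparin cofactor II, rose from 26.2 ± 1.21 to 52.4 ± 0.29 TPM (0.97, adjusted p = 0.0062). *F13B* (0.77, adjusted p = 0.027) and *KNG1*, for kininogen (0.75, adjusted p = 0.021), rose as well. *FGG* and *FGB*, for chains of fibrinogen, fell. *FGG* went from 687 ± 38.1 to 328 ± 6.26 TPM (log2 fold change -1.06, adjusted p = 0.0035) and *FGB* from 1378 ± 23.0 to 742 ± 7.46 TPM (-0.89, adjusted p = 0.0021). *PLAUR*, for the urokinase receptor, fell from 11.8 ± 0.06 to 3.54 ± 1.59 TPM (-1.54, adjusted p = 0.039), and *SERPINA5*, for the protein C inhibitor, from 299 ± 7.40 to 183 ± 1.00 TPM (-0.70, adjusted p = 0.0041).

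The fibrinogen genes also had the opposite direction in PPs. At 0 h 4 of 21 other coagulation genes tested rose and 1 fell, with a median of 0.19. *FGB* rose from 3.82 ± 1.06 to 16.1 ± 1.16 CPM (log2 fold change 1.84, adjusted p = 0.00063), *FGG* from 1.63 ± 0.78 to 6.49 ± 0.27 CPM (1.54, adjusted p = 0.0053) and *FGA* from 3.83 ± 0.68 to 10.1 ± 2.98 CPM (1.18, adjusted p = 0.016). *SERPINE2*, for a protease inhibitor, rose from 15.4 ± 1.27 to 24.1 ± 1.08 CPM (0.62, adjusted p = 0.027). *SERPINA5* fell from 433 ± 14.3 to 265 ± 2.89 CPM (-0.71, adjusted p = 0.00048), and was thus lower in A5-KO in both stages, unlike the fibrinogen genes.

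Of 22 other complement genes tested in hILOs, 4 rose and 3 fell, with a median of 0.15. *CLU*, for the complement regulator clusterin, rose from 445 ± 18.4 to 935 ± 28.3 TPM (log2 fold change 1.07, adjusted p = 0.0028), and *CFI*, for the protease that inactivates C3b, from 127 ± 5.46 to 204 ± 2.13 TPM (0.68, adjusted p = 0.0065). *C8G* (1.24, adjusted p = 0.028) and *C8A* (0.60, adjusted p = 0.049), for chains of the pore component C8, rose from low levels. *C1R*, for a protease of the classical route, fell from 73.3 ± 4.43 to 37.0 ± 0.34 TPM (-0.97, adjusted p = 0.0063). *MASP1*, for a protease of the lectin route, fell from 31.2 ± 2.11 to 18.2 ± 0.60 TPM (-0.74, adjusted p = 0.017), and *CFD*, for factor D, which activates factor B, fell from 8.30 ± 0.28 to 2.68 ± 0.50 TPM (-1.35, adjusted p = 0.018). In PPs at 0 h none of 13 such genes was called, with a median of -0.09.

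Among hepatocyte markers, 7 of 17 rose in hILOs and 1 fell, with a median log2 fold change of 0.47. *ALB*, for albumin, rose from 932 ± 3.28 to 1880 ± 47.9 TPM (1.01, adjusted p = 0.0021), and *TTR*, for transthyretin, from 7539 ± 16 to 18711 ± 52.5 TPM (1.31, adjusted p = 0.0011). *APOA2* (2.18), *TF*, for transferrin (2.07), and *ITIH1* (1.83) rose further and *AHSG* fell (-0.76). *APOA1* stood at 3085 ± 79.5 and 3076 ± 111 TPM (adjusted p = 0.95), and *AFP* at 5633 ± 140 and 6351 ± 135 TPM (0.17, adjusted p = 0.039, under 1.5-fold). In PPs at 0 h 5 of 11 rose and none fell, among them *AFP* from 557 ± 8.58 to 1319 ± 34.6 CPM, *TTR* from 7.00 ± 0.57 to 35.4 ± 0.42 CPM, *ALB* from 4.5 ± 0.01 to 15.5 ± 1.5 CPM and *APOB* from 75.1 ± 0.39 to 116 ± 12.5 CPM. Of the 6 members tested in these same PPs, *SERPINC1*, *C3* and *C5* were higher in both A5-KO libraries. *F5* and *F10* were lower in both and *F2* overlapped, and none of the 6 was called. The part of the hepatocyte markers in the results above was not tested.

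**Figure D4:**
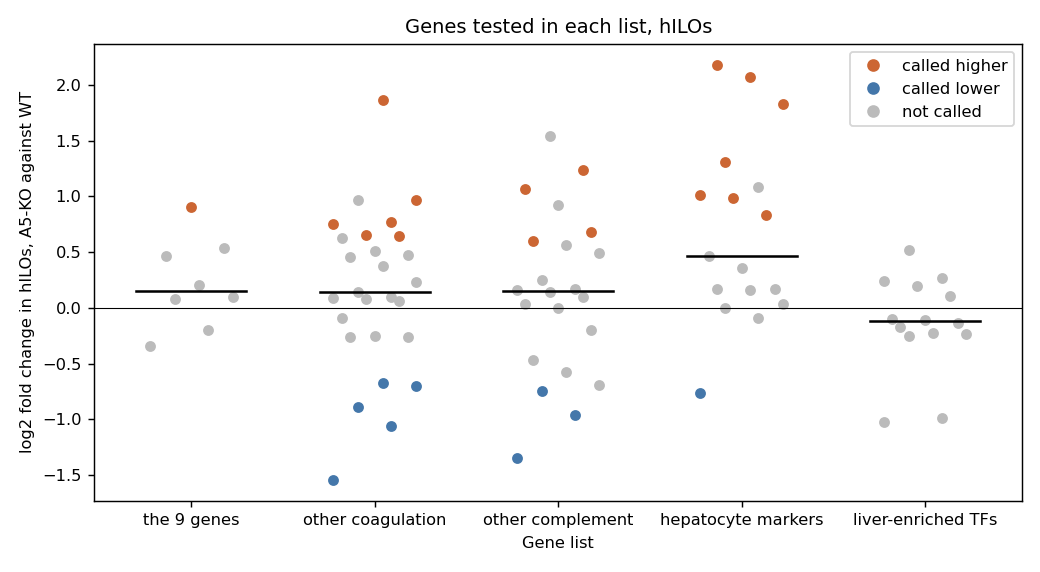
Log2 fold change of A5-KO against WT in hILOs for every gene tested in 5 lists, with a bar at the median of each list and colour for genes called higher or lower. The median is 0.15 for the genes described here and 0.47 for hepatocyte markers, and the other coagulation genes spread from *PLAUR* at -1.54 to *CPB2* at 1.87.

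Of 14 liver-enriched transcription factor genes, none was called in hILOs by limma (median -0.12). In PPs at 0 h *FOXA1* rose from 17.4 ± 4.96 to 44.8 ± 6.59 CPM and *ONECUT1* fell from 17.9 ± 1.18 to 6.28 ± 1.34 CPM. Over Act D 12 of the 14 had a slope in A5-KO that passed with a negative sign, also with both other scalings, with a median of -0.70 log2 CPM per hour. Of all genes 37.1% had such a slope, or 26.8% by median of ratios and 21.6% by quantiles. At 3 h 10 of the 14 fell in A5-KO against WT (8 by median of ratios and 7 by quantiles). Of all genes 17.7% did (13.7% by median of ratios and 9.46% by quantiles).

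Markers of other cell types were also measured. Of the 9 macrophage markers, whose cells make *C3* and *CFB* elsewhere, 1 passed the filter in hILOs and none in PPs, with *C1QB* and *C1QC* at 0 in every hILO library. Their summed level was 90.1 to 90.8 TPM in WT against 105 to 113 TPM in A5-KO hILOs. Nearly all of it was *CD68*, the 1 marker tested, whose mean went from 89.4 to 107 TPM. *CD68* was not called (log2 fold change 0.25, limma adjusted p = 0.060), and the sum says little of the other markers. None of the 6 megakaryocyte markers, whose cells store factor V, passed the filter in hILOs, where they summed to 0.833 to 1.53 TPM in the 4 libraries. Of 8 endothelial markers 2 were tested in hILOs and neither was called. Mesenchyme markers included 2 that rose and 1, *VIM*, that fell, of 5 tested in hILOs, and 3 that rose of 7 tested in PPs at 0 h. Of 6 intestinal epithelium markers tested in hILOs, *APOA4* was called lower (-0.63, adjusted p = 0.0028), a call lost with both other scalings, and none was called higher. The log2 fold change was nevertheless positive for 4 of the 6, with a median of 0.39. These were *CDH17* (0.35), *VIL1* (0.43), *LGALS4* (0.43) and *FABP2* (0.53), all under 1.5-fold, with limma adjusted p from 0.0061 to 0.011. The 8 intestinal markers summed to 4481 to 4504 TPM in WT against 3407 to 3486 TPM in A5-KO hILOs. Most of that sum was *APOA4*, whose mean went from 3681 to 2383 TPM, so the lower sum does not describe the other markers. Islet markers fell for 4 of 10 in hILOs, with *INS* at -0.77 (adjusted p = 0.0021), and 1, *NEUROD1*, rose. Of the 8 pancreatic progenitor markers tested, *ONECUT1* alone was called in PPs at 0 h, and none in hILOs.

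*C3* and *CFB* are known to respond to inflammatory signals. Of 14 NF-kB and interferon response genes tested in hILOs, 1 rose and 2 fell. *CRP*, for the acute phase protein, rose from 0.352 ± 0.09 to 16 ± 1.99 TPM (log2 fold change 3.64, adjusted p = 0.0035), and the chemokine genes *CXCL1* (-2.15, adjusted p = 0.0070) and *CXCL8* (-1.08, adjusted p = 0.010) fell, with a median of -0.13 over the list. Of 8 tested in PPs at 0 h, *ICAM1* fell and none rose. At 2 h, the time of the highest *C3* in A5-KO, *ICAM1* was called higher of 7 tested, with a median of -0.02.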

How the data were processed

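RNA-seq of WT and A5-KO hILOs (2 libraries each) and of PPs at 0, 1, 2 and 3 h of Act D (2 libraries for each genotype and time) was used. The authors aligned reads to GRCh38 (hg38) with HISAT2 (2.1.0, per the submitters' processing notes) and deposited TPM for each gene in hILOs, quantified with StringTie, and CPM for each gene in PPs. fastp trimmed the reads. The annotation and the read counter behind the CPM are not given in the sources used here. RNA of PPs had been spiked with ERCC mixes, which the CPM do not use. The CPM were whole multiples of 1 read in 100% of values (within 0.05 reads), which gave back 30516384 to 35206514 reads per library. TPM keep no depth, so precision rests on 2 libraries per group.

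limma (3.58.1, R 4.3.3, eBayes with a trend) was fitted to all genes with a mean of at least 1, on log2(TPM + 1) in hILOs, on log2(CPM + 1) in the 4 PP libraries at 0 h, on the same scale in all 16 PP libraries for 1, 2 and 3 h, and on log2(CPM + 0.1) for slopes. Calls need an adjusted p below 0.05 and, other than for slopes, a change over 1.5-fold, the limits of the study. Tests of the recovered reads with edgeR (4.0.16) and with DESeq2 (1.42.0) served as alternatives. Code was tested on simulated data. Loci and exon lengths are from GENCODE on GRCh38.

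The members and gene lists were chosen with earlier results of these data known. Named are all 9 genes, at most 4 list genes in each direction with the largest change among those called with a mean of at least 5, *ALB*, *AFP*, *TTR* and *APOA1*, and the 3 genes most correlated with each member over the 16 PP libraries; some of the latter are left out for length. The contrasts against 0 h were added after the data were seen. One gene of the coagulation list is not reported here and is left out of its counts.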

Additional observations from a re-analysis of the deposited data

Results flagged for a closer look

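The genotype difference of 3 genes had opposite signs in hILOs and in PPs at 0 h, with every library of one genotype beyond every library of the other in both stages. The log2 fold change of A5-KO against WT was 0.91 in hILOs and -0.47 in PPs for *F5*, 0.54 and -0.31 for *F10*, and -0.35 and 0.21 for *C3*. The difference between the stages was not tested, since TPM and CPM come from tables normalized separately, and the PP values of *F10* and *C3* did not pass their own test.

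The genotype difference of *C3* at 2 h of Act D exceeded that at 0 h by 1.102 on the log2 scale (limma adjusted p = 0.0018), by a test of the difference itself. Other scalings gave 1.25 (median of ratios) and 1.13 (quantiles). All libraries here are of 2 per group, too few for a test of single libraries that stand apart.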

How the results depend on the processing

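Counts of members called moved under some settings. In hILOs the 1 gene called higher, *F5*, became 0 with no filter on low values, with a mean of at least 10 (where *F5* was not tested) and under the replicate block (adjusted p = 0.076), while median-of-ratios scaling gave 2. With 1 hILO library left out it was 0 in every case. In PPs at 0 h the 0 called higher became 1, *SERPINC1* (adjusted p = 0.029), with the replicate block. At 1 h the 0 called lower became 1 with median-of-ratios scaling, and ranged from 0 to 1 with 1 library left out. The 2 called higher at 2 h became 1 with no filter, with a mean of at least 10 and with only the 4 libraries of that time, and ranged from 1 to 2 with 1 library left out. The 0 slopes called in WT became 2, *C3* and *C5*, with 0 and 3 h only, where 1.62% of all genes passed with a positive slope and 16% with a negative one. The 4 positive slopes in A5-KO became 1 with no filter and 2 without the 2 h libraries, and ranged from 1 to 4 with 1 library left out. The 0 positive slope differences became 1 with 0 and 3 h only, where 2.11% of all genes passed with a positive difference and 19.9% with a negative one. The cause was not tested beyond the fewer genes or libraries some settings use.

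Directions that turned all belong to values that passed no test. *F10* at 2 h was 0.030 under median-of-ratios scaling, 0.086 under quantile normalization, 0.027 by edgeR with TMM, 0.0225 by edgeR with DESeq2 size factors, and 0.0228 by DESeq2. *F5* at 3 h was -0.043 under quantile normalization, and its WT slope 0.011 under median-of-ratios scaling. The A5-KO slope of *SERPINC1* was -0.0037 with 0 and 3 h only and -0.015 without the 2 h libraries, its slope difference 0.0071 with quantile normalization, and the slope difference of *C5* -0.0014 with 0 and 3 h only. With 1 library left out, values that turned were *F2* in hILOs (-0.0041 to 0.16), *F10* at 1 h (-0.10 to 0.27) and 2 h (-0.14 to 0.017), *F5* at 2 h (-0.022 to 0.23) and 3 h (-0.015 to 0.053), *SERPINC1* at 3 h (-0.072 to 0.21), the WT slope of *F10* (-0.014 to 0.060) and the A5-KO slope of *SERPINC1* (-0.033 to 0.095). *C3* at 1 and 2 h kept its call in every setting tried.

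Same-numbered libraries of the 2 genotypes deviated together little, with correlations from -0.06 to 0.18, the highest in PPs at 0 h. With 2 libraries per group this cannot settle whether the numbers pair the samples. At 0 h the replicate block raised the calls over all genes from 218 higher and 157 lower to 365 and 266. In hILOs it lowered them from 467 and 707 to 289 and 385. The block also took the A5-KO slope of *F10* to an adjusted p of 0.056 and changed no other call. Replicates differed by more than counting noise, with 4.16 to 34.1 times the chi-square per degree of freedom, so 2 libraries per group, not depth, limit the precision. The highest value was that of WT PPs at 2 h, the reference for the calls of *C3* and *SERPINC1* at that time. Pancreatic progenitor markers summed to 238 CPM in one of these WT libraries and to 548 CPM in the other. Over all genes, the 400 higher and 156 lower calls at 1 h became 336 and 220 with quantile normalization, and the 18 positive and 15 negative WT slopes 28 and 12 with median-of-ratios scaling and 42 and 9 with quantile normalization.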
